A study of Drosophila melanogaster with 8 samples.

Results

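The ionotropic receptors are a family of chemosensory ion channels of insects. Their genes carry symbols made of Ir, the number of a cytological band and a letter, and every gene identifier with a symbol of that form was taken as a member. This gave 54 genes of the 14622 identifiers measured in heads of Drosophila melanogaster. In the study, gene expression was compared by RNA sequencing between a mutant of the RNA editing enzyme ADAR and a wild type. The mutant group (EA, strain y, sc, AdarE374A) carries a point mutation that leaves ADAR without deaminase activity, was made by CRISPR and was backcrossed to the wild type strain. The wild type group (WT) was white Canton-S. Both groups were heads of 3 day old males grown at 18 °C, with 4 libraries each, and nothing in the labels says whether replicates came from separate crosses or collections, so the p-values measure only the spread between these libraries. Members of the family were taken by symbol alone, not by any measured value, but earlier results of these data were known at that time.

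Ionotropic receptors descend from ionotropic glutamate receptors. In the fly they open in response to odours, tastants, temperature or humidity. A tuned receptor subunit, made in a small set of sensory neurons, joins a broadly expressed co-receptor subunit to form the channel. The co-receptors are Ir8a, Ir25a and Ir76b. The antennal odour receptors include Ir75a, Ir75b, Ir75c, Ir31a, Ir64a and Ir84a, described mainly for acids, and Ir41a, Ir75d, Ir76a and Ir92a, described mainly for amines. Ir21a serves cool sensing, Ir40a dry sensing and Ir68a moist sensing, each with Ir93a and Ir25a as partners. The remaining genes are called divergent, and many of them have been described from taste organs of the mouthparts, pharynx and legs. ADAR changes adenosine to inosine in double-stranded RNA and is most active in the nervous system.

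The 8 libraries held 12517490 to 24342035 reads in EA and 9930607 to 19173154 reads in WT. Values are read counts that the study's pipeline had divided by a size factor per library, called normalized counts here. As a check of the labels, the eye pigment transporter gene w was at 134 to 189 normalized counts in EA and at 0 to 3.97 in WT, which carries a white mutation. The groups therefore differ in w, and by strain label in y and sc, as well as in ADAR activity. This design cannot tell their parts in a group difference apart. Of the marker lists, 4 eye genes summed to 253973 to 306564 in EA and 182875 to 227974 in WT. The largest part was ninaE, which averaged 138906 in EA and 93926 in WT. Groups did not overlap for ninaE, Arr1 and ninaC, against 7.99% of all genes tested. They overlapped for trp, with a log2 fold change of 0.02. Only Arr1 of the 4 had an adjusted p under 0.05 in limma (0.0492). Of 8 markers of reproductive tract and midgut, which a head should lack, 4 were among the measured genes. These summed to 2.64 to 10.9 in EA and 4.84 to 11.9 in WT. The only midgut gene of the 4, betaTry, had reads in WT replicate 1 alone. Among all 10347 genes with a mean of at least 10 normalized counts, 125 differed between EA and WT at an adjusted p of 0.05 in the limma fit (1.21%).

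Most of the family was near the limit of detection in whole heads. A mean of at least 10 normalized counts was reached by 17 of the 54 genes, and these were tested. They were all 3 co-receptors, 8 of the 10 antennal odour receptors, 3 of the 4 temperature and humidity receptors and 3 of the 37 divergent receptors. Together the 17 genes held 95.5% of the family's summed normalized count, and the 4 most abundant genes alone held 51.3%. A library detected at least 1 read for 40, 37, 38 and 42 members in EA replicates 1 to 4, against 37, 32, 40 and 35 members in WT replicates 1 to 4. After thinning each library to the depth of the smallest, EA libraries detected 35.7 ± 1.82 members and WT libraries 33.8 ± 2.66 (mean ± SD, 4 libraries each), and the groups overlapped. Summed over the family, EA libraries held 1350 ± 79.9 normalized counts and WT libraries 1434 ± 210 (SD, n = 4), a difference smaller than the spread in WT. In a bulk sample of this kind, fewer receptor neurons and less receptor RNA per neuron cannot be told apart.

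**Figure D1:**
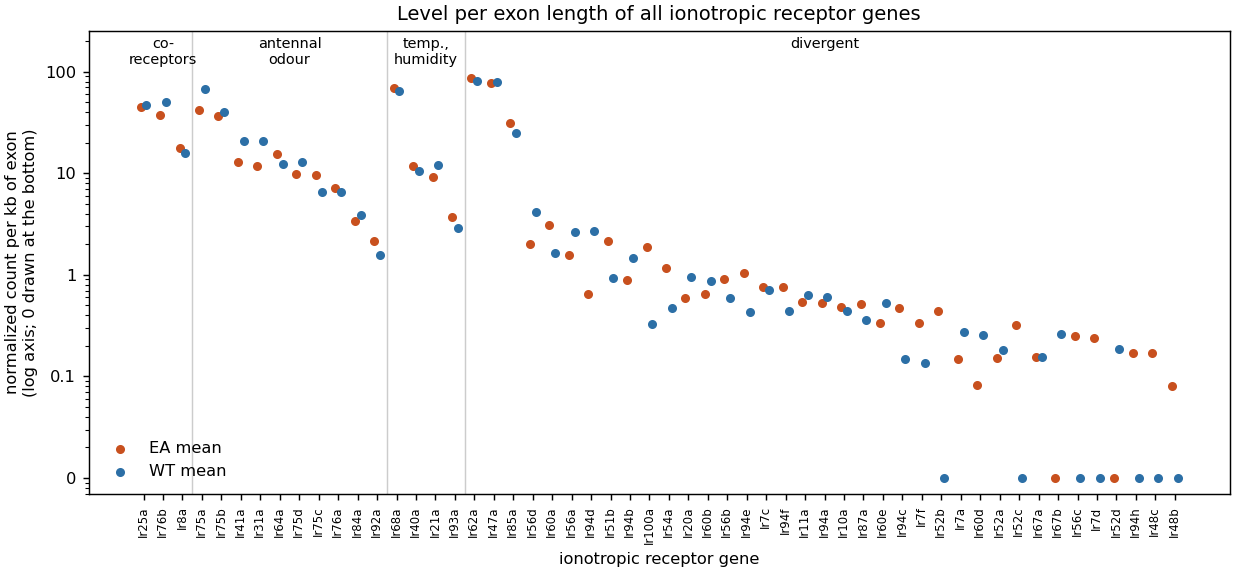
Mean normalized count per kb of exon (log axis) of the 54 ionotropic receptor genes, ordered by role and level, with the EA mean left of the WT mean for each gene (n = 4 libraries each) and means of 0 drawn at the bottom. By the mean over all 8 libraries, Ir62a and Ir47a, which lie inside abundant genes on the same strand, and Ir68a had the highest levels per length. In WT alone Ir75a was above Ir68a. All divergent receptors other than Ir62a, Ir47a and Ir85a lay below the tested antennal odour receptors.

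Levels per kb of exon can be compared between genes, and the order given here is by the mean over all 8 libraries. At its top stood 3 receptors. Of these, Ir62a and Ir47a lie inside abundant genes on the same strand, whose reads could be counted for them. Ir62a, a divergent receptor described for avoidance of calcium in taste neurons, averaged 87.3 normalized counts per kb in EA and 80.1 in WT. Ir47a, a divergent receptor, averaged 77.7 per kb in EA and 78.9 in WT. The moist receptor Ir68a averaged 69.5 per kb in EA and 64.7 in WT. These 3 neighbours in the order do not differ beyond the spread between libraries. By that mean Ir68a was the first among receptors free of overlap with another gene, but in WT alone Ir75a was above it. The acetic acid receptor Ir75a followed, at 41.8 per kb in EA and 67.4 in WT. Next came the co-receptors Ir25a, at 44.7 per kb in EA and 46.8 in WT, and Ir76b, at 37.3 in EA and 50.2 in WT. In EA alone Ir25a was above Ir75a, and in WT alone Ir76b was above Ir25a. The third co-receptor, Ir8a, was lower, at 17.6 per kb in EA and 15.8 in WT. It thus ranked below Ir75a and Ir75b, antennal receptors that pair with it. At the low end of the tested genes were the acid receptor Ir75c, at 9.64 per kb in EA and 6.47 in WT, and the phenylethylamine receptor Ir76a, at 7.18 in EA and 6.60 in WT.

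**Figure D2:**
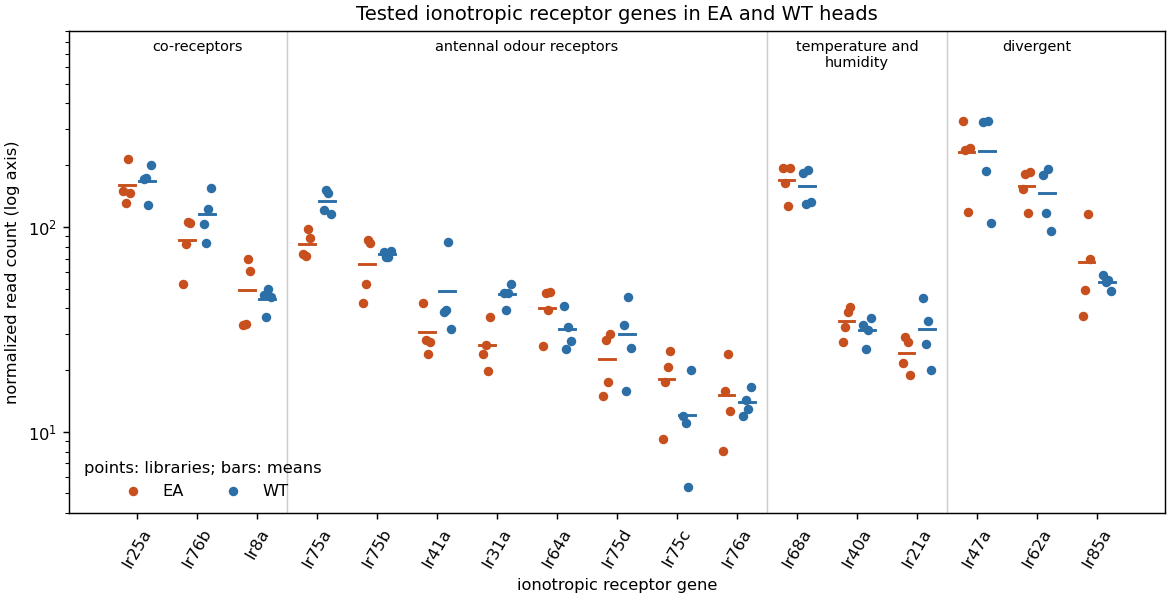
Normalized read count (log axis) of the 17 tested ionotropic receptor genes in each library, grouped by role, with the 4 EA libraries left of the 4 WT libraries and a bar at each mean. The EA and WT points overlap for 15 genes, and for Ir75a and Ir31a all EA points lie below all WT points.

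None of the 17 tested receptors differed between EA and WT at an adjusted p of 0.05, by limma or by edgeR on the recovered reads, against the 1.21% of all genes called by limma. DESeq2 on the same reads called 1 of the 17, Ir75a, where it called 5.16% of all genes. At an unadjusted p under 0.05, limma passed 2 of the 17 (11.8%), Ir75a and Ir31a, against 12.7% of all genes tested, so the family's share was near the background. Those 2 receptors were also the ones whose 4 EA libraries all lay below the 4 WT libraries, a pattern found in 4.03% of all genes tested. No tested receptor had all EA libraries above all WT libraries, against 3.96% of all genes tested. In either direction, groups did not overlap for 2 of the 17 receptors (11.8%) and for 7.99% of all genes tested. The fold change was above 0 for 9 receptors and below 0 for 8, with a median log2 fold change of EA over WT of 0.03, against -0.0029 for all genes. That median was -0.22 without EA replicate 3, and it was below 0 whichever single library was left out. The median size of the log2 fold change was 0.21 for the receptors and 0.12 for all genes tested, and the median standard error was 0.25 for the receptors and 0.14 for all genes.

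**Figure D3:**
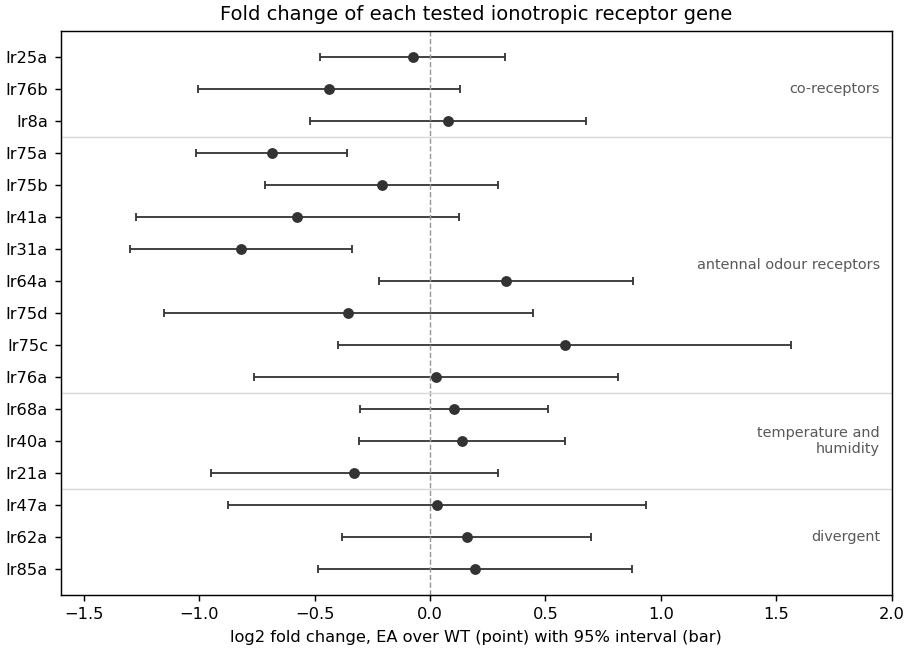
Log2 fold change of EA over WT (point) with its 95% interval (bar) for each of the 17 tested ionotropic receptor genes, from the limma fit on log2 of the normalized count plus 1, grouped by role. The intervals of Ir75a (-1.01 to -0.36) and Ir31a (-1.30 to -0.34) lie below 0 before adjustment over all genes, and the other intervals include 0.

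The lowest p-values of the family belonged to antennal receptors for acids. Ir75a, tuned to acetic acid, had 73.3, 72.1, 97.4 and 88.4 normalized counts in EA replicates 1 to 4, against 120, 152, 147 and 116 in WT replicates 1 to 4. Every EA library was below every WT library. Its log2 fold change was -0.69 ± 0.15 (SE), which is a level of 0.622 times WT, with an adjusted p of 0.0635 in limma that did not pass the threshold. The adjusted p was 0.0656 in edgeR and 0.00573 in DESeq2, and over the limma fits that left out 1 library it ran from 0.0482, without EA replicate 3, to 0.204. The call for Ir75a therefore differed between tools and between sets of libraries. The gene (FBgn0036757) lies on chromosome arm 3L at 17815570 to 17817921 on the minus strand of BDGP6.54, and no other annotated gene overlaps its exons.

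Ir31a is another antennal acid receptor. It had 24.1, 26.4, 19.7 and 36.1 normalized counts in EA replicates 1 to 4, against 47.6, 39.5, 47.5 and 52.6 in WT replicates 1 to 4. All EA libraries were again the lower ones, with EA replicate 4 nearest to WT. The log2 fold change was -0.82 ± 0.21 (SE), and the adjusted p was 0.125 in limma, 0.131 in edgeR and 0.0605 in DESeq2. Leaving out 1 library at a time gave adjusted p-values of 0.125 to 0.279 in limma. The gene (FBgn0051718) lies on arm 2L at 10405565 to 10408197 on the plus strand of BDGP6.54, free of overlapping exons.

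Other transcripts of the antenna are given beside these values, since the amount of antenna in a head sample bears on them. A list of 16 antennal genes (odorant-binding proteins, odorant receptors and their partners) summed to 14657, 20330, 26186 and 20388 normalized counts in EA replicates 1 to 4, against 22542, 23028, 26742 and 28955 in WT replicates 1 to 4. EA replicate 1 was the lowest of the 8, EA replicate 3 lay within the WT range, and the groups overlapped (exact permutation p = 0.143, two-sided, n = 4 each, and 0.0571 to 0.429 over the alternatives, where 0.0286 is the smallest p that 4 against 4 allows). Of the 13 list members tested, 11 had a log2 fold change below 0 and 2 above, and none passed limma's adjusted threshold. An unadjusted p under 0.05 in limma was found for 3 of the 13, against 12.7% of all genes tested. Among the 13, all EA libraries lay below all WT libraries for Obp83a and the low odorant receptor gene Or42b, against 4.03% of all genes tested. The median over the 13 was -0.17, and none of the 16 was at 0 in every library. The sum mostly follows abundant odorant-binding protein genes, of which Obp19d alone averaged 9875 in EA and 12023 in WT. The odorant receptors of the list averaged 3.20 to 18.5 each in EA and 5.46 to 18.0 in WT. Orco, the co-receptor of the odorant receptors, averaged 749 ± 128 in EA, against 847 ± 139 in WT (SD over 4 libraries each), and its log2 fold change was -0.18. The odorant-binding protein gene Obp83a had 1979, 3380, 3270 and 2924 normalized counts in EA, against 3762, 3762, 5128 and 4952 in WT, which did not overlap (log2 fold change -0.62, adjusted p = 0.163 in limma).

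Set against Orco within each library, Ir75a was still lower in EA by 0.51 on average on the log2 scale, but WT replicate 4 then lay within the EA range. Set against the mean log2 level of the 16 antennal genes, the difference was -0.45, and the groups overlapped too. Each gene counts equally in that mean, including low odorant receptor genes. Among them Or67d was at 0 in WT replicate 1, against 9.71 to 27.7 in the other WT libraries. This lowers the mean in WT replicate 1, so Ir75a and Ir31a stand higher against it there. For Ir31a the differences were -0.64 against Orco and -0.58 against the 16 genes, and all EA libraries stayed below all WT libraries under both. Against the 16 genes the margin was narrow, with EA replicate 4 at -2.37 and WT replicate 4 at -2.33 on the log2 scale. These scalings and receptors were chosen after seeing the data, and the values carry no test.

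**Figure D4:**
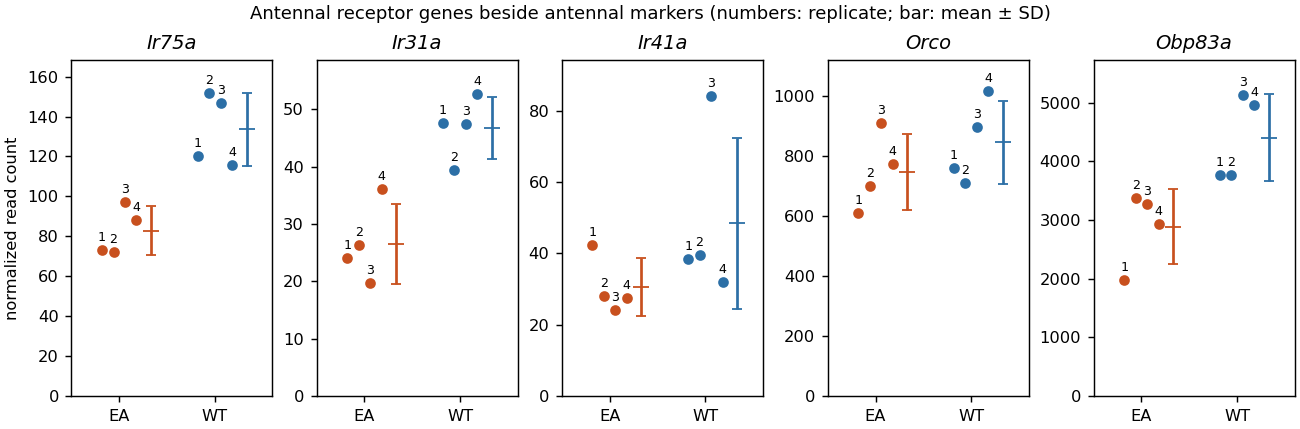
Normalized read counts of the antennal receptors Ir75a, Ir31a and Ir41a and of the antennal markers Orco and Obp83a in each library (points, labelled by replicate number), with the EA libraries left of the WT libraries and the mean ± SD of each group (n = 4) beside the points. EA and WT do not overlap for Ir75a, Ir31a and Obp83a, they overlap for Orco, and the spread of Ir41a in WT comes from replicate 3 at 84.2.

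Ir75a lies in a cluster with Ir75b and Ir75c, from 17815570 to 17822834 on 3L (BDGP6.54). The annotation gives the 3 genes the same strand, and their receptors serve different acids. Ir75b had 42.4, 52.7, 86.4 and 83.2 normalized counts in EA, against 75.4, 71.0, 71.2 and 76.1 in WT, with EA replicates lying on both sides of a narrow WT range (log2 fold change -0.21 ± 0.23, adjusted p = 0.790 in limma). Ir75c, the lowest of the cluster, had 9.17, 17.6, 20.8 and 24.7 in EA, against 11.9, 11.1, 5.39 and 20.1 in WT (log2 fold change 0.58 ± 0.44, adjusted p = 0.657 in limma). The log2 fold changes of the 3 neighbours were thus -0.69, -0.21 and 0.58. Within a library, Ir75a was 1.06 to 1.73 times Ir75b in EA and 1.52 to 2.13 times Ir75b in WT, so the ratios overlapped, and no test of a difference between the neighbours was made.

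Among the amine receptors, no group difference exceeded the spread of the libraries. Ir41a, a polyamine receptor of the antenna, had 42.4, 28.1, 24.1 and 27.5 normalized counts in EA, against 38.4, 39.5, 84.2 and 31.8 in WT. WT replicate 3 stood above the other libraries, and the groups overlapped (log2 fold change -0.58 ± 0.31, adjusted p = 0.50 in limma). Without that library the log2 fold change of Ir41a was -0.28. Ir76a had 8.02, 15.8, 24.1 and 12.6 in EA, against 11.9, 14.2, 12.9 and 16.6 in WT, with a log2 fold change of 0.03 ± 0.35. Ir75d, described for pyrrolidine, had 14.9, 28.1, 17.5 and 29.8 in EA, against 33.1, 15.8, 45.3 and 25.6 in WT (log2 fold change -0.35 ± 0.36). The acid receptor Ir64a had 26.4, 47.5, 39.4 and 48.2 in EA, against 41.0, 25.3, 32.4 and 27.7 in WT, and its log2 fold change was 0.33 ± 0.25 (adjusted p = 0.653 in limma). The 10 antennal odour receptors together summed to 252, 296, 345 and 360 normalized counts in EA, against 390, 377, 457 and 377 in WT, so the groups did not overlap in the sum. Ir75a and Ir31a, whose own groups did not overlap, are part of that sum, so the sum is not separate evidence of lower levels across these receptors. The groups overlapped for each of its other genes. Of its 8 tested genes 5 had a log2 fold change below 0 and 3 above, and no test of the sum is given. For single genes, all EA libraries lay below all WT libraries in 4.03% of those tested, and no such share was made for sums.

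The co-receptors, which report on broad sets of ionotropic receptor neurons, did not pass the test. Ir25a, the most widely used of them, had 150, 131, 213 and 146 normalized counts in EA, against 171, 172, 128 and 200.01 in WT. EA replicate 3 was the highest of all 8 libraries and WT replicate 3 the lowest (log2 fold change -0.07 ± 0.18, 95% interval -0.47 to 0.33, adjusted p = 0.926 in limma). Ir8a, the partner of the acid receptors, had 33.2, 33.4, 70.01 and 60.8 in EA, against 46.3, 36.3, 49.6 and 45.7 in WT. The EA libraries lay in pairs on either side of the WT libraries (log2 fold change 0.08 ± 0.27, 95% interval -0.52 to 0.67, adjusted p = 0.952 in limma). Ir76b, the partner of the amine receptors and of many taste receptors, had 52.7, 82.6, 105 and 104 in EA, against 103, 83.7, 122 and 154 in WT. It was lowest in EA replicate 1 and highest in WT replicate 4, with overlap between (log2 fold change -0.44 ± 0.25, 95% interval -1.003 to 0.13, adjusted p = 0.537 in limma).

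The EA and WT libraries also overlapped for the receptors of temperature and humidity. Ir68a had 194, 164, 127 and 194 normalized counts in EA, against 183, 129, 189 and 131 in WT (log2 fold change 0.10 ± 0.18, 95% interval -0.30 to 0.51). Ir40a had 27.5, 32.5, 38.3 and 40.7 in EA, against 33.1, 25.3, 31.3 and 36.0 in WT (log2 fold change 0.14 ± 0.20). Ir21a had 21.8, 29.0, 27.3 and 18.9 in EA, against 45.0, 26.8, 34.5 and 20.1 in WT (log2 fold change -0.33 ± 0.28). The adjusted p-values of these 3 genes in limma ran from 0.707 to 0.887. The shared partner Ir93a averaged 8.99 normalized counts over the 8 libraries, too low to be tested, and had 5.47 to 18.5 in EA and 1.32 to 14.2 in WT.

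The 3 divergent receptors that were tested all lie inside other genes, and reads of the surrounding gene could be counted for them. Ir47a (FBgn0033515, arm 2R, 10377128 to 10380109, minus strand, BDGP6.54) lies within SLO2, a potassium channel gene on the same strand that averaged 2891 normalized counts. No annotated exon of SLO2 overlaps the exons of Ir47a. The pseudogene Ir47b, on the same strand, overlaps 13.8% of the exon length of Ir47a. Ir62a (FBgn0053971, arm 3L, 1529439 to 1531259, minus strand) lies within Iml1, a regulator of nutrient signalling on the same strand that averaged 1699. No annotated exon of Iml1 overlaps the exons of Ir62a. Ir85a (FBgn0037630, arm 3R, 8794684 to 8796966, plus strand) lies within Pif1A, on the opposite strand and at 17838 normalized counts on average, and 10.8% of its exon length overlaps exons of Pif1A. The opposite-strand gene Pif1B also contains Ir85a, overlaps the same share of its exon length and averaged 17763. Whether reads were counted by strand is not given in the sources used here.

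Ir47a had 329, 238, 118 and 242 normalized counts in EA, against 323, 186, 328 and 104 in WT. EA replicate 3 and WT replicate 4 were the low libraries, so the spread was within groups (log2 fold change 0.03 ± 0.40, adjusted p = 0.989 in limma). SLO2 was lowest in the same 2 libraries, with 3205, 3153, 1958 and 2958 normalized counts in EA and 3336, 2686, 3579 and 2251 in WT. Ir62a had 152, 180, 117 and 186 in EA, against 180, 117, 191 and 95.5 in WT, and was also low in EA replicate 3 and WT replicates 2 and 4 (log2 fold change 0.16 ± 0.24, adjusted p = 0.864 in limma). Iml1 had 1493, 1654, 1494 and 1513 in EA, against 1999, 1735, 2065 and 1640 in WT. The level of Ir62a was 0.0783 to 0.123 times that of Iml1 in EA and 0.0582 to 0.0925 times in WT.

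**Figure D5:**
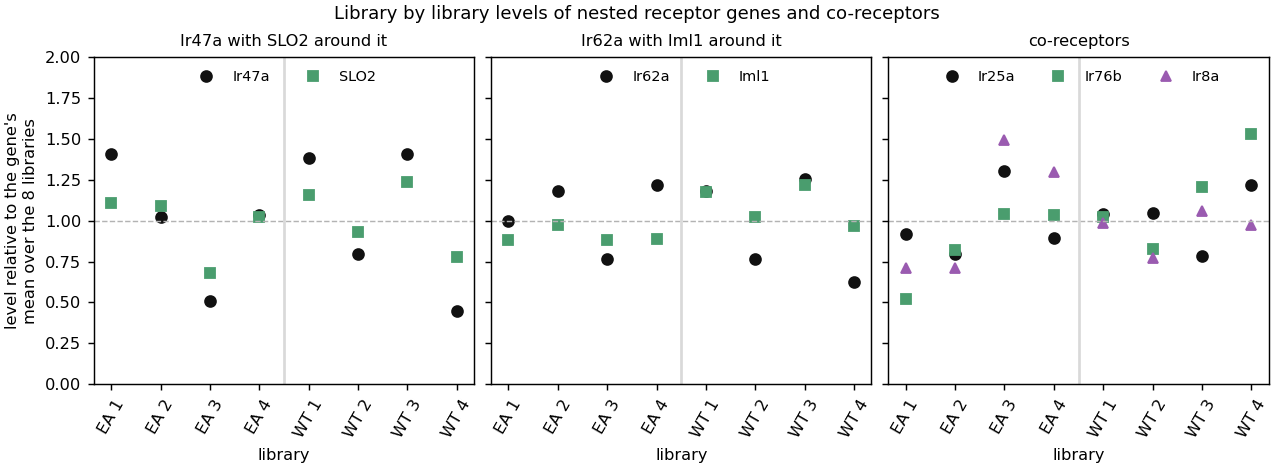
Level of each gene relative to its own mean over the 8 libraries, with the 4 EA libraries left of the 4 WT libraries: Ir47a with SLO2, Ir62a with Iml1, and the co-receptors Ir25a, Ir76b and Ir8a. Ir47a and SLO2 were both lowest in EA replicate 3 (0.506 and 0.677) and WT replicate 4 (0.445 and 0.779), where Ir25a was at 1.30 and 1.22.

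Libraries thus differed in opposite ways for different receptors. In EA replicate 3, 7 of the 17 tested receptors had their highest EA value, namely Ir25a, Ir8a, Ir76b, Ir75a, Ir75b, Ir76a and Ir85a. There 5 had their lowest, namely Ir47a, Ir62a, Ir68a and the antennal receptors Ir31a and Ir41a, and the other 5 had neither. Within EA, a sum of 4 neuronal markers (elav, nSyb, brp and Syt1) was also lowest in that library, whereas the antennal sum was highest there. The neuronal sum was 91583, 80561, 53539 and 74297 in EA replicates 1 to 4, against 60574, 51310, 61135 and 47184 in WT replicates 1 to 4. Between groups, Syt1 alone averaged 40976 in EA and 20749 in WT. The log2 fold changes of elav, nSyb and brp were 0.16, 0.03 and -0.10. The part of these differences between libraries in the receptor values was not tested. Ir85a had 36.7, 49.2, 114.9 and 69.4 normalized counts in EA, against 58.2, 53.7, 55.0 and 48.4 in WT, and its high value in EA replicate 3 set its positive fold change, which was 0.20 ± 0.30 with all libraries and -0.10 without that one. Pif1A was also highest in EA replicate 3, at 21582, against 17531 to 18379 in the other EA libraries and 16174 to 17301 in WT.

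Of all 54 members, 14 share position with another annotated gene, and these held 38.4% of the family's summed normalized count. The 6 of them that were tested were Ir47a, Ir62a, Ir85a, Ir75d, Ir21a and Ir76a. Ir75d has 90.7% of its exon length under exons of COX6AL2 on the same strand and 21.8% under exons of Prp6 on the opposite strand, and the values of COX6AL2 tracked it closely, at 13.7, 26.4, 17.5 and 29.8 in EA and 31.8, 15.8, 42.1 and 25.6 in WT. These identifiers are not separate measurements. For Ir21a, 79.4% of its exon length lies under the antisense RNA gene asRNA:CR43609, and for Ir76a 14.1% lies under CG14102 on the opposite strand. The 11 tested receptors free of overlap, a subset looked at after seeing the data, had a median log2 fold change of -0.07, and none was called by limma.

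The other 37 members averaged 0.0717 to 8.99 normalized counts, and the highest count in any library was 21 reads. In 20 of them neither group had a library with more than 3 reads, so no fold is given. EA alone was at that floor for 6, WT alone for 5, and neither for the remaining 6. Of the 37, 1 had groups that did not overlap, against 2.5% of all genes with a mean under 10. This was Ir56d, a taste receptor for fatty acids, with 4.58, 6.15, 1.09 and 3.44 normalized counts in EA, against 9.26, 9.47, 6.47 and 6.23 in WT. The highest EA and the lowest WT library differed by less than the worth of 1 read. The courtship receptor Ir84a, tuned to phenylacetic acid, had 5.47 to 7.03 in EA and 6.23 to 9.71 in WT, and the amine receptor Ir92a had 0.879 to 9.85 in EA and 2.16 to 4.84 in WT.

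The 34 untested divergent receptors gave 202 reads in all EA libraries together and 151 in all WT libraries. EA libraries held 44.0 ± 3.84 of their normalized counts in sum, against 41.9 ± 11.7 in WT libraries (SD, n = 4), less than Ir75a alone. Among them, 7 had no read in any WT library and 2 no read in any EA library, and only 4 had reads in all 8 libraries. Several of these genes, such as Ir52c and Ir52d, have been described from male forelegs, which a head sample does not hold. Counts this low leave little power to see a change in them. Admitting them gave no call. With the mean required lowered to 1, limma tested 37 members and called 0, with 5 at an unadjusted p under 0.05 and a smallest adjusted p of 0.0770, where it called 1.02% of all genes and 12.1% had an unadjusted p under 0.05. With no minimum it tested all 54 and called 0, with 7 at an unadjusted p under 0.05, where it called 0.622% of all genes and 10.9% had an unadjusted p under 0.05.

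By position, 18 members lie on arm 2R, 13 on 3R, 11 on 3L, 8 on X and 4 on 2L. The Adar gene is on X, where the EA strain also carries y and sc, and the closest member on that chromosome, Ir7a, starts 5.98 Mb from it. Of the 66 symbols of the family in the annotation, 37 fall into 12 clusters of genes lying within 10 kb of each other. Only 4 of the clustered genes were abundant enough to be tested, Ir47a and the Ir75a, Ir75b and Ir75c cluster. The 12 symbols outside the 54 members, of which 6 are annotated as pseudogenes, were not analysed here.

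In lists of relatives and neighbours of the family in function, no gene passed limma's adjusted threshold. As 1.21% of all genes tested passed it, no call in lists of this size is near the background. Of 13 glutamate receptor channel genes, the family's nearest relatives, 12 were tested and none passed. They had 4 log2 fold changes above 0, 8 below 0 and a median of -0.04. Of the 12, 2 had an unadjusted p under 0.05 in limma, against 12.7% of all genes tested. Among the 12, all EA libraries lay above all WT libraries for Ekar and clumsy only, against 3.96% of all genes tested. Ekar, a kainate-type receptor, had the smallest p, at 1108 ± 229 normalized counts in EA, against 689 ± 92.8 in WT (SD over 4 libraries each, log2 fold change 0.67, adjusted p = 0.0750 in limma). Of 22 other chemosensory genes, 20 were tested and none passed, with 2 at an unadjusted p under 0.05 in limma. They had 7 log2 fold changes above 0, 13 below 0 and a median of -0.08. The smallest p of these was that of Snmp2, a CD36-family membrane protein, with a log2 fold change of -0.55 and an adjusted p of 0.119 in limma, and Obp59a, an odorant-binding protein gene, had -0.47 (adjusted p = 0.336 in limma). The odorant-binding protein gene lush had a log2 fold change of -0.09 and Snmp1, a membrane protein of pheromone-sensing neurons, of -0.17. Of 8 transcription factors of chemosensory neurons 5 were tested, and none passed. In 8 markers of taste organs, 6 were tested and none passed, and they summed to 106 to 154 normalized counts in EA and 118 to 177 in WT, so the taste organ markers overlapped between groups.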

How the data were processed

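Head RNA, labelled as polyA RNA but described as depleted of ribosomal RNA, was sequenced as paired 75 bp reads. The submitters' processing notes name TopHat, featureCounts, Subread, DESeq2, dm3 and BDGP5, and versions, annotation and strand setting are not given in the sources used here. The deposited signal is a read count per gene that the authors divided by 1 size factor per library. The deposited table also holds the authors' own mean, fold change, standard error, statistic and p-values, which were not used. Each value was a whole multiple of 1 read within 0.01, so reads were recovered.

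Symbols and positions came from Ensembl 115 (BDGP6.54) by FlyBase identifier for 14023 of 14622 identifiers. This is another build than that of the counts, and no count was recomputed. limma 3.58.1 (lmFit, eBayes with trend) was run in R 4.3.3 on log2(normalized count + 1) with group as the only term, for 10347 genes with a mean of at least 10, two-sided, with Benjamini-Hochberg adjustment over all of them and a threshold of 0.05. Fold changes on this scale understate changes of low genes. edgeR 4.0.16 and DESeq2 1.42.0 on recovered reads, other pseudocounts, filters and scaling, a replicate block and leaving out each library were alternatives. The fits were tested on simulated data. A group with at most 3 reads in every library was called at the floor, which covers counting error only.

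The co-receptors, all tested members and members whose groups did not overlap (at least 4 reads in each library of the higher group) were named, with Orco, lush and Snmp1 as markers. Other genes were named after their values were seen. Members and lists were chosen with earlier results of these data known. Sequences were not used here.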

Additional observations from a re-analysis of the deposited data

Results flagged for a closer look

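In 40 groups of 4 libraries, made of the members' counts and their sums, a library was looked for whose gap to the nearest of the others took up most of the group's range (above Dixon's 95% critical value for 4 samples), which chance gives in about 5% of groups. It was found in 2 groups. Ir41a had 84.2 normalized counts in WT replicate 3, against 31.8 to 39.5 in the other WT libraries (ratio 0.854). The summed normalized count of the 54 receptors was 1469 in EA replicate 4, against 1299 to 1324 in the other EA libraries (ratio 0.855), and that library was the deepest of the 8.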

How the results depend on the processing

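The count of receptors called, 0 of 17 by limma, became 1 (Ir75a) at an adjusted p threshold of 0.1, with DESeq2 and without EA replicate 3, and ran from 0 to 1 over the fits without 1 library. Over all genes the 125 calls became 239 at the threshold of 0.1, 532 with DESeq2 and 36 to 184 without 1 library. The replicate numbers did not pair the libraries (correlations of same-numbered deviations 0.19, -0.19, -0.23 and -0.12), and with the replicate block 26 genes and 0 receptors were called. The receptors' median log2 fold change ran from -0.22 to -0.0032 without 1 library, against 0.03 with all. Of 272 planned fold changes under 16 alternatives, 18 reversed, in 6 receptors. Ir47a was at -0.0044 in edgeR and -0.020 in DESeq2. Without 1 library Ir47a ran from -0.31 to 0.32, Ir25a from -0.22 to 0.016, Ir62a from -0.024 to 0.31, Ir85a from -0.10 to 0.44, Ir8a from -0.11 to 0.24 and Ir76a from -0.22 to 0.27. The causes were not tested. As a share of all reads, the EA to WT ratio of the summed family was 1.002, against 0.941 in normalized counts. Counting receptors with at least 4 reads gave 23.5 per EA library and 22.75 per WT library. Low counts limit the fold changes of most of the family.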
